A study of Mus musculus with 4 samples.

Results

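The effect of a miR-155 vector was read in RAW264.7 cells that had been driven toward osteoclasts with RANKL and M-CSF. RAW264.7 is a mouse macrophage-like cell line that can form osteoclast-like cells in culture. The comparison is the stimulated miR-155 vector array minus the stimulated control vector array, 2 of the 4 arrays of the study, described across 19938 genes. Each gene is represented by 1 probe set with a single gene symbol, and where a gene had several, by the one with the highest mean. The 4 groups were control vector cells without stimulation, control vector cells after 72 h of RANKL and M-CSF, miR-155 vector cells without stimulation, and miR-155 vector cells after the same 72 h. The cytokine dose is given as 20 ng/ml, without saying whether it applies to each cytokine, and the series text speaks of wild-type cells where the sample descriptions name a control vector. RNA went onto Affymetrix Mouse Gene 1.0 ST arrays, 1 array per group, so no difference below has a replicate check and no p-value can be given. Both groups are cultures of a transformed cell line, and the vector backbone, the level of miR-155 reached and the number of clones are not named in the labels.

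Osteoclasts are large multinucleated cells that form by fusion of macrophage-lineage precursors. RANKL, acting through the receptor RANK, TRAF6, NF-kB, the AP-1 factor c-Fos and finally NFATc1, switches on the genes for fusion, acid secretion and bone matrix digestion, while M-CSF supports survival and growth through its receptor. miR-155 is a microRNA best known as an inflammation-induced regulator in macrophages and lymphocytes. A microRNA lowers the output of messages that pair with its seed, bases 2 to 8 of the mature strand.

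The miR-155 sequences are shown because the seed defines which messages can pair with it. They are RefSeq entries on GRCm38.p6, with the hairpin at chr16:84714140-84714204 on the plus strand and its 5p strand, 23 nucleotides long, at chr16:84714143-84714165. Capitals mark the seed in the mature strands and the 5p strand in the hairpin.
mmu-miR-155-5p: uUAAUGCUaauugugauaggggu
mmu-miR-155-3p: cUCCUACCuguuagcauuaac
Mir155 hairpin: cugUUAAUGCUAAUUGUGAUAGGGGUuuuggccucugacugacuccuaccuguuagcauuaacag
Of 1738 mature mouse miRNAs in the RefSeq table, 1 carried the seed UAAUGCU, which is miR-155-5p itself. The array's Mir155 probe set read 3.72 and 3.61 in unstimulated and stimulated control cells and 3.58 and 3.73 in miR-155 cells, all below the floor defined next. The arrays therefore give no level for the microRNA.

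All values are log2 expression values, and a difference of 1 is 2-fold. A floor of 4.25 was set at the 95th percentile of 1212 probe sets for olfactory and vomeronasal receptors, which macrophages are not known to use. A gene was kept when at least 1 of the 4 arrays was above that floor, which left 13561 genes. On the stimulated pair, 12217 of these were above the floor on both arrays, 432 on the miR-155 array alone, 583 on the control array alone and 329 on neither. Among the receptor probe sets 95% of differences between the stimulated arrays were within 0.47 of 0, and 5 of 1212 were past 2-fold, which serves as a measure of noise. Another is the agreement of different probe sets. In 718 genes with several above the floor, the median gap between their differences was 0.14 and the 95th percentile 0.80. Of 76 such genes past 2-fold, the second probe set had the same sign in 75 and was also past 2-fold in 51. Some pairs gave identical differences, which makes the agreement look closer than it would otherwise be. The array medians lay between 4.58 and 4.62.

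The cell type on the label was checked against markers. Of 12 macrophage markers, 11 were above the floor, and the exception was Mertk, which read 3.36 to 3.58. On the stimulated control array Ptprc, the pan-leukocyte phosphatase CD45, read 8.97 and Cd68 read 12.96. Other macrophage markers were lower there than on the unstimulated control array. Adgre1 read 4.88 against 9.26, Lyz2 7.58 against 13.59 and Cd14 6.52 against 10.59, while Spi1 was higher, at 11.60 against 10.64. A macrophage-lineage identity was thus readable there from part of the list only. All 15 osteoclast markers were above the floor. Of the lists for other cell types, 7 of 13 T and B cell markers, 5 of 17 granulocyte and mast cell markers, 9 of 15 fibroblast and osteoblast markers, 6 of 12 dendritic cell markers and 6 of 11 erythroid, endothelial and epithelial markers were above the floor on some array. Their median stimulated differences lay between -0.27 and 0.12, and the dendritic cell list holds Itgax, the integrin CD11c, described with the integrins below. Their part in the results was not tested.

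Between the stimulated arrays 1512 of 13561 genes, 11.1%, differed past 2-fold. They were split almost evenly, with 759 higher (5.6%) and 753 lower (5.55%) in miR-155 cells. The upper end reached further: 179 genes were higher (1.32%) and 91 lower (0.671%) past 4-fold, 1.99% together, and 37 were higher (0.273%) and 9 lower (0.0664%) past 8-fold. Past 8-fold 0.339% of all genes differed. Past 1.5-fold, the threshold used for the gene lists below, 25.9% of all genes differed, 12.3% higher and 13.6% lower. List counts below are to be read beside these shares. Across all genes the median difference was -0.02 and the SD 0.68. The same contrast in unstimulated cells, which uses the other 2 arrays, had an SD of 0.28 and put 83 genes, 0.612%, past 2-fold, 9 higher (0.0664%) and 74 lower (0.546%). Pearson's r across the 13561 genes, which are not independent of each other, was 0.937 between the stimulated arrays and 0.989 between the unstimulated arrays.

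**Figure D1:**
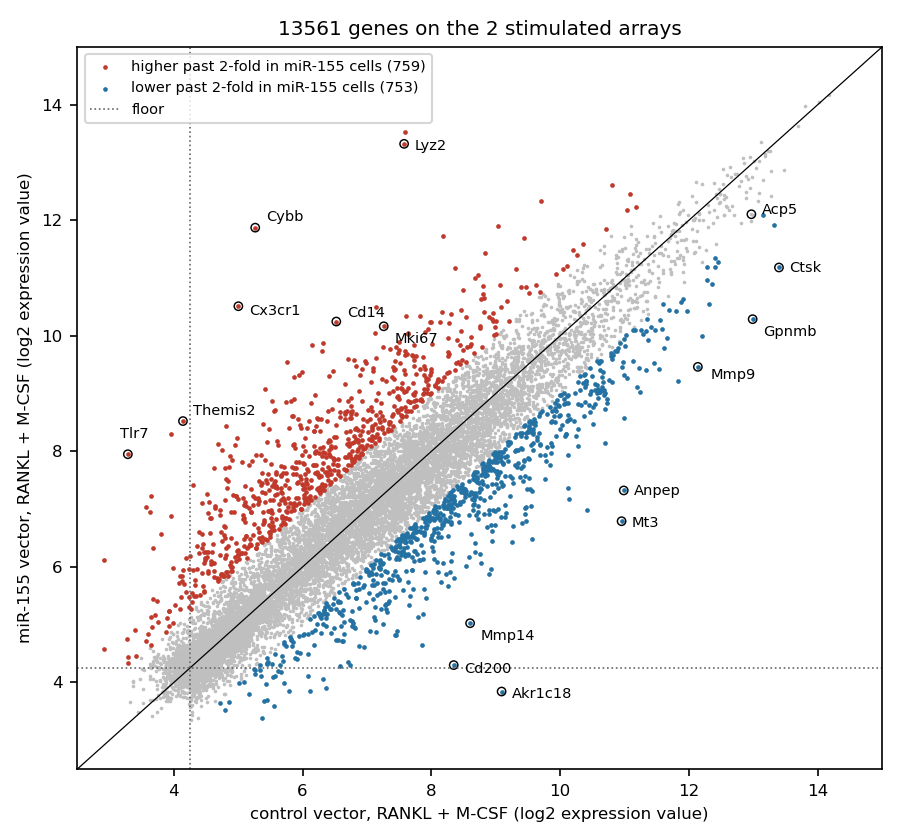
Log2 expression values of 13561 genes on the stimulated control array (x axis) and the stimulated miR-155 array (y axis), 1 array each. Red points are the 759 genes higher and blue points the 753 genes lower past 2-fold in miR-155 cells, grey points are the rest, the diagonal is equality and the dotted lines are the floor of 4.25. Cybb, the lysozymes and Cx3cr1 lie far above the diagonal, and Akr1c18, Mt3 and Cd200 far below it.

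Which array set these differences apart could be read from the other 3. For 1453 of the 1512 genes, 96.1%, the stimulated control array was the one farthest from the median of the remaining arrays. The stimulated miR-155 array held that place for 49 genes, 3.24%. This count does not say how near the stimulated miR-155 array lay to the unstimulated ones. Mmp14 read 5.03 there against 4.95 and 5.26 without stimulation, while Mmp9 read 9.46 against 5.12 and 4.59. With 1 culture a group, an effect of the vector on the response and a difference between the 2 stimulated cultures for any other reason cannot be told apart.

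**Figure D2:**
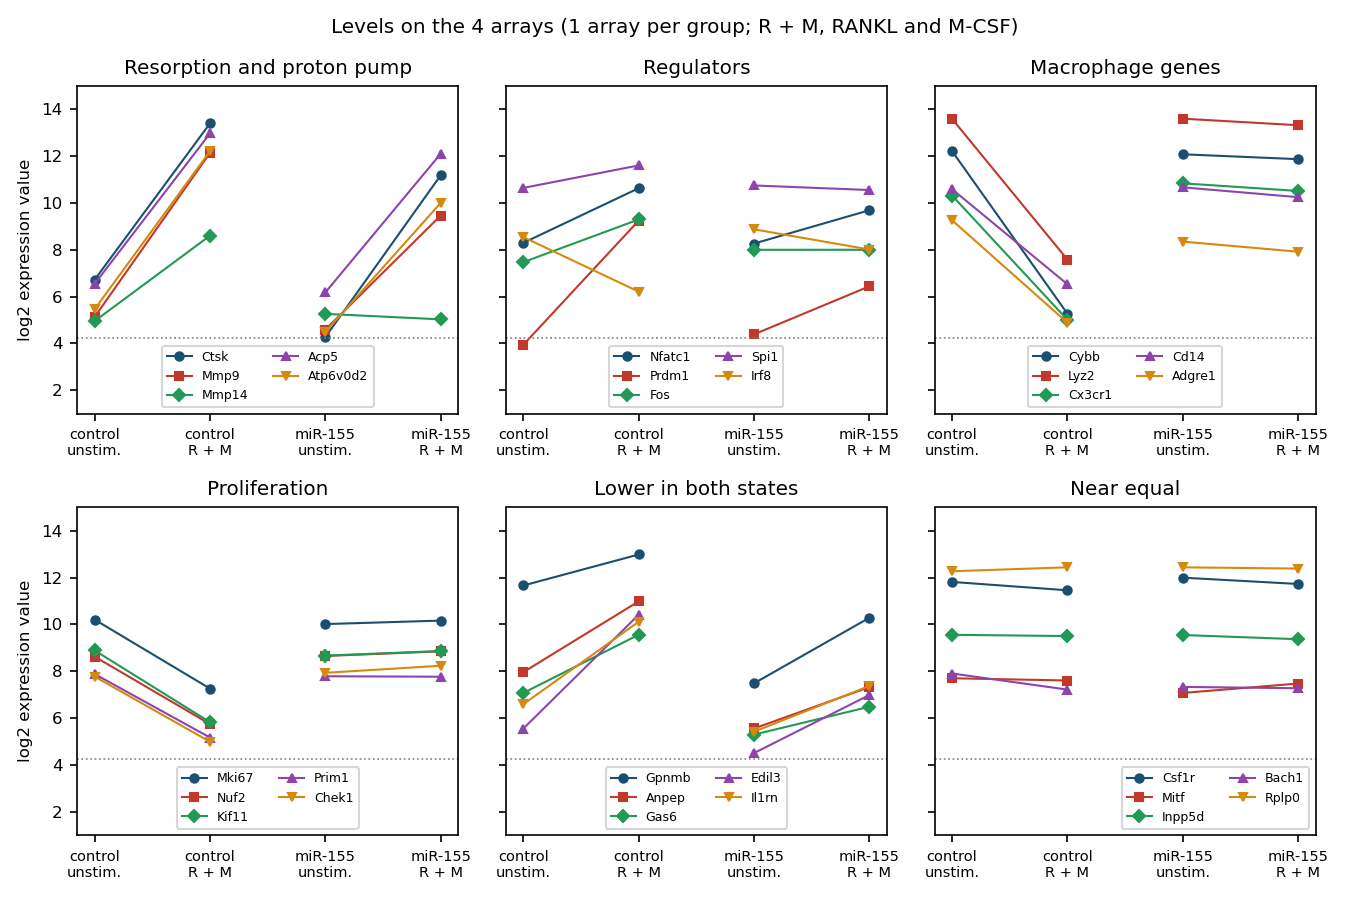
Log2 expression values of 30 genes on the 4 arrays, in 6 panels, with control vector cells on the left and miR-155 vector cells on the right of each panel. Lines join the unstimulated and the stimulated array (R + M) of 1 vector, the dotted line is the floor of 4.25, and each point is 1 array. In the macrophage and proliferation panels the stimulated control array is the low one, and in the resorption panel both stimulated arrays are high except for Mmp14.

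The defining osteoclast genes were all lower in stimulated miR-155 cells. Of 15 osteoclast identity markers 15 were lower past 1.5-fold, against 13.6% of all genes lower past that fold, and their median difference was -1.76. They were not at their unstimulated levels: the median response to stimulation over these 15 genes was 4.54 with the control vector and 3.06 with miR-155. Ctsk encodes cathepsin K, the main collagen-digesting protease of the osteoclast. It read 6.72 and 13.40 in unstimulated and stimulated control cells and 4.26 and 11.18 in miR-155 cells, a stimulated difference of -2.22, 4.65-fold lower. The difference was already -2.45 without stimulation. Acp5, the tartrate-resistant acid phosphatase used to stain osteoclasts, read 6.54 and 12.97 in control cells and 6.17 and 12.10 in miR-155 cells. Its difference of -0.87 was the smallest of the 15. Mmp9, a gelatinase, read 5.12 and 12.14 in control cells and 4.59 and 9.46 in miR-155 cells, a difference of -2.68. Calcr, the calcitonin receptor, was above the floor on the stimulated control array alone, at 5.71 against 3.98 in stimulated miR-155 cells, which makes it at least 2.76-fold lower. In arrays of whole cultures, fewer osteoclast-like cells and less of each message per cell cannot be told apart.

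Bone matrix proteases, a list that shares Ctsk, Mmp9 and Acp5 with the identity markers, were lower in part. Of 15 genes of this list above the floor (19 listed), 8 were lower and 4 higher past 1.5-fold, with a median of -0.85. The lower ones include the phosphatase Acp5 and the inhibitor Timp2, which are not proteases. Mmp14, a membrane-bound collagenase, read 4.95 and 8.60 in control cells and 5.26 and 5.03 in miR-155 cells. It was 11.9-fold lower after stimulation, and the stimulated miR-155 array was at the level of both unstimulated arrays. Timp2, a metalloproteinase inhibitor that also helps MMP14 activate MMP2, was lower by 2.61. At the other end, Adam17, the sheddase of TNF and of the M-CSF receptor, read 10.51 and 7.98 in control cells and 10.32 and 10.24 in miR-155 cells, a difference of 2.26. Ctsl, a lysosomal cathepsin, was higher by 0.99 and Adam10, a related sheddase, by 0.80.

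The proton pump was lower in nearly all of its core subunits. The vacuolar ATPase acidifies lysosomes and, at the osteoclast's ruffled border, the space over bone. Its V1 sector hydrolyses ATP in the cytosol and its V0 sector carries protons through the membrane. Of 12 V1 subunits above the floor, 9 were lower and 0 higher past 1.5-fold, with a median of -1.29. The 9 include Atp6v1b1, which read 4.49 in stimulated control cells and 3.87, below the floor, in stimulated miR-155 cells. Measured against the floor it is only known to be at least 1.19-fold lower. Atp6v1d read 8.34 and 11.46 in control cells and 7.60 and 9.52 in miR-155 cells, a difference of -1.94. The 3 subunits within 1.5-fold were Atp6v1c2, Atp6v1e2 and Atp6v1g2, which stayed at 6.07 or below on every array. Of 11 V0 and accessory subunits, 7 were lower and 0 higher, with a median of -1.06. Atp6v0d2, the d-subunit isoform linked to osteoclast fusion, read 5.46 and 12.21 in control cells and 4.48 and 10.00 in miR-155 cells, a difference of -2.21. Its ubiquitous counterpart Atp6v0d1 differed by -1.06 and Tcirg1, the a3 subunit mutated in osteopetrosis, by -1.21.

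Transport partners of the pump were lower as well. Of 18 genes for the ruffled border and ion transport, 12 were lower and 2 higher past 1.5-fold, with a median of -1.05. Clcn7, the chloride-proton exchanger that balances the pump, read 8.18 and 11.61 in control cells and 7.69 and 9.79 in miR-155 cells, a difference of -1.82. Its partner subunit Ostm1 differed by -1.76, and Slc4a2, the basolateral bicarbonate exchanger, by -1.77. Snx10, a sorting nexin whose loss causes osteopetrosis, read 7.43 and 9.86 in control cells and 7.51 and 7.97 in miR-155 cells, a difference of -1.9. Car2, the carbonic anhydrase that supplies the protons, was lower by 1.62. The higher members were Rab27a, a vesicle-docking GTPase, by 1.66 and Clcn3, an endosomal chloride exchanger, by 0.69.

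Lysosomal genes followed with smaller differences. Of 34 lysosomal hydrolases and membrane proteins, 18 were lower and 1 higher past 1.5-fold, with a median of -0.65. Arsb, arylsulfatase B, read 8.70 and 11.33 in control cells and 9.29 and 9.41 in miR-155 cells, a difference of -1.93. Smpd1, acid sphingomyelinase, was lower by 1.69, Tpp1, a lysosomal peptidase, by 1.60 and Gla, alpha-galactosidase A, by 1.54. Lamp1 and Lamp2, the abundant membrane glycoproteins, differed by 0.16 and 0.49, and Ppt1, a palmitoyl thioesterase, was the 1 member higher past 1.5-fold, by 0.86.

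Promoters of pump and lysosome genes are known to carry the CLEAR element, the binding site of the MiT transcription factors (MITF, TFEB, TFE3). Its core TCACGTGA, which reads the same on both strands, was searched in windows from 250 bases before to 50 after each RefSeq start site on GRCm38.p6. It occurred in 3 of 35 promoters of the lysosomal list, in 1 of 10 of the V1 list and in 2 of 11 of the V0 list, against 0.974% of all 32851 promoters. The matching promoter of the list member with the largest difference is shown for the lysosomal and the V1 list, with the core in capitals. The Gla promoter lies at chrX:134600956-134601255 on the minus strand and the Atp6v1a promoter at chr16:44139210-44139509 on the minus strand.
Gla: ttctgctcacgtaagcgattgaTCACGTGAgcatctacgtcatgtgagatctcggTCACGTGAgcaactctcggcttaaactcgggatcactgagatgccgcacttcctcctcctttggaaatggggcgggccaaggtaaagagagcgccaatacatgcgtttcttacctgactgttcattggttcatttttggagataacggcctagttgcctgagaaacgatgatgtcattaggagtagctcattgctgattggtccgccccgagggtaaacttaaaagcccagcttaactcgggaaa
Atp6v1a: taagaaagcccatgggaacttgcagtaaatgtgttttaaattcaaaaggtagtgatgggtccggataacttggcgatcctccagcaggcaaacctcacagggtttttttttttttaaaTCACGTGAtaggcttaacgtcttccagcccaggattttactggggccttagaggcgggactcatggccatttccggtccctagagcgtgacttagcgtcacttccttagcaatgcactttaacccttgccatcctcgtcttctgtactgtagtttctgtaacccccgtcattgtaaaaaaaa
Over all genes above the floor with a promoter holding the core, 14 of 210 (6.67%) were lower past 2-fold, against 5.51% of those without it. A match is a description of letters and not of binding.

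Of the MiT factors, Mitf and Tfe3 lay within the noise range after stimulation, while Tfeb and Tfec were past it in opposite directions. Mitf read 7.70 and 7.60 in control cells and 7.07 and 7.47 in miR-155 cells, a stimulated difference of -0.13. Tfe3 differed by -0.06 and Tfeb by 0.52. Tfec, a macrophage and osteoclast member of the family, read 6.32 and 6.48 in control cells and 4.93 and 5.76 in miR-155 cells, a difference of -0.72. Gpnmb, a membrane glycoprotein known as a MITF target, had the widest difference of this list, at 11.67 and 12.99 in control cells against 7.49 and 10.29 in miR-155 cells. It was 6.51-fold lower after stimulation and 18.1-fold lower without it.

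Fusion genes were lower or within 1.5-fold. Of 16 cell fusion genes above the floor, 9 were lower and 0 higher past 1.5-fold, with a median of -0.72. Dcstamp and Ocstamp, the membrane proteins needed for osteoclast fusion, differed by -1.57 and -1.42. Ocstamp read 5.69 and 10.97 in control cells and 6.37 and 9.55 in miR-155 cells, so that it was higher by 0.68 without stimulation. Cd200, a membrane glycoprotein that engages an inhibitory receptor on myeloid cells and is induced on fusing macrophages, read 3.69 and 8.35 in control cells and 3.63 and 4.30 in miR-155 cells, 16.5-fold lower after stimulation. It sat barely above the floor in stimulated miR-155 cells. The general adhesion partners Cd47, Sirpa and Cd81 differed by -0.35, -0.04 and 0.34, and a second probe set of Cd47 gave 0.44.

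Receptors and proximal signals of RANK were lower in part. Of 22 genes of the RANK receptor and TRAF list, 8 were lower and 1 higher past 1.5-fold, against 13.6% and 12.3% of all genes. The median was -0.44. Tnfrsf11a, which encodes RANK, read 8.53 and 9.44 in control cells and 8.91 and 8.71 in miR-155 cells, a difference of -0.73. Traf6, its main adaptor, was lower by 1.13 and Gab2, a docking protein that links RANK to downstream kinases, by 1.9. Tnfaip3, the NF-kB feedback inhibitor A20, read 6.48 and 9.04 in control cells and 6.52 and 6.99 in miR-155 cells, a difference of -2.04. Mapk14, p38 alpha kinase, was the 1 higher member, by 1.05. The M-CSF receptor Csf1r read 11.82 and 11.46 in control cells and 12.0003 and 11.73 in miR-155 cells, a difference of 0.27, within the noise range of 0.47.

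Co-stimulation through ITAM adaptors, which drives the calcium signal for NFATc1, had more lower than higher members. Of 20 members, 10 were lower and 2 higher past 1.5-fold, against 13.6% and 12.3% of all genes, with a median of -0.55. Oscar, the osteoclast-associated receptor for collagen, read 4.84 and 10.70 in control cells and 4.72 and 8.14 in miR-155 cells, a difference of -2.56. Cblb, an E3 ubiquitin ligase that restrains this signalling, read 6.20 and 8.53 in control cells and 5.92 and 6.01 in miR-155 cells, a difference of -2.52. Siglec15, a sialic acid receptor that pairs with DAP12, was lower by 1.83, the kinase gene Src by 1.99 and Syk by 1.32. The adaptor Tyrobp (DAP12) was lower by 0.69, while Fcer1g, Trem2, Plcg2 and Btk were within the noise range of 0.47. Fgr, a Src-family kinase of myeloid cells, was higher by 1.75.

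Among transcription factors, Nfatc1, the master regulator of osteoclast differentiation, read 8.30 and 10.63 in control cells and 8.27 and 9.69 in miR-155 cells, a difference of -0.94. Rcan1, a calcineurin inhibitor and NFAT target, was lower by 1.65, and Camk2d, a calcium-dependent kinase, by 1.91. The list of NFAT and calcineurin genes had 6 lower and 2 higher of 19 past 1.5-fold, against 13.6% and 12.3% of all genes. Its median was -0.18, and the catalytic calcineurin subunits Ppp3ca, Ppp3cb and Ppp3cc differed by -0.34, 0.09 and -0.32.

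The AP-1 list had 8 lower and 1 higher of 17 members, against 13.6% and 12.3% of all genes, with a median of -0.31. Fos, required for osteoclast formation, read 7.47 and 9.29 in control cells and 8.0 and 8.0 in miR-155 cells, a difference of -1.3. The stimulated miR-155 array was thus level with its unstimulated partner. Fosl2 read 7.23 and 10.70 in control cells and 7.47 and 8.74 in miR-155 cells, a difference of -1.97, and Jund was lower by 1.15. Atf3, a stress-induced repressor, was the 1 higher member, by 1.39. The AP-1 letters TGANTCA, searched on both strands, were in 2 of 17 promoters of the bone matrix protease list (11.8%), against 7.81% of all promoters. Of 685 genes above the floor with these letters in a promoter, 9.78% were lower and 4.23% higher past 2-fold, against 5.24% and 5.77% of 10089 genes without them.

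Repressors that clear the way for osteoclast genes differed widely. Prdm1, which encodes Blimp1, the repressor of macrophage genes during osteoclast formation, read 3.94 and 9.25 in control cells and 4.38 and 6.44 in miR-155 cells, 7.01-fold lower. Irf8, a macrophage factor that opposes NFATc1 and is a known target of Blimp1, read 8.54 and 6.21 in control cells and 8.87 and 8.01 in miR-155 cells, a difference of 1.80. Bcl6, another repressor that Blimp1 silences, was higher by 0.48. Spi1 (PU.1), the lineage factor of both cell types, read 10.64 and 11.60 in control cells and 10.75 and 10.55 in miR-155 cells, a difference of -1.05. Over all 23 repressors and myeloid factors the median was 0.08, with 4 higher and 7 lower, against 12.3% and 13.6% of all genes. Egr1, an immediate-early factor, was lower by 2.09, and Klf4 and Cebpa, macrophage and granulocyte factors, were higher by 1.19 and 0.80.

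NF-kB genes leaned lower, with 5 of 9 lower and 0 higher past 1.5-fold and a median of -0.62. Nfkbia, the inhibitor IkBa and itself a target of the pathway, read 9.61 and 11.33 in control cells and 9.77 and 10.09 in miR-155 cells, a difference of -1.25. Relb and Bcl3 were lower by 1.09 and 1.17, and Nfkb2 by 0.65. Dusp1, a phosphatase that switches off MAP kinases, read 7.88 and 10.13 in control cells and 7.94 and 7.18 in miR-155 cells, 7.72-fold lower, and was below both unstimulated arrays.

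Adhesion and the cytoskeleton carried further differences. The osteoclast seals itself to bone with a ring of actin-rich podosomes anchored by the integrin alpha-v beta-3. Itgb3, its beta chain, read 5.32 and 8.94 in control cells and 5.30 and 6.44 in miR-155 cells, a difference of -2.49. Itgav, the alpha chain, was lower by 1.70. Itgax, CD11c, read 4.36 and 6.96 in control cells and 4.27 and 4.61 in miR-155 cells, a difference of -2.35. In the other direction, Itgam, the macrophage integrin CD11b, read 9.61 and 7.55 in control cells and 9.61 and 9.18 in miR-155 cells, a difference of 1.64, and Itga4 was higher by 1.14. Of 15 integrin subunits above the floor, 8 were lower and 3 higher past 1.5-fold.

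The podosome and actin list had 12 of 30 members lower and 3 higher, against 13.6% and 12.3% of all genes, with a median of -0.35. Scin, an actin-severing protein, read 4.13 and 10.07 in control cells and 3.95 and 8.26 in miR-155 cells, a difference of -1.81. Dock5, an exchange factor for Rac in osteoclasts, and Actn1, an actin crosslinker, were lower by 1.59, and Vcl, vinculin, by 1.40. The general actin regulators Rhoa, Cdc42, Flna and Was stayed between -0.17 and 0.23.

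Several macrophage genes were at the far upper end of the comparison, although macrophage identity markers as a list went both ways. Of 11 above the floor, 5 were higher and 3 lower past 1.5-fold, with a median of 0.52, the lower ones being Spi1, Tyrobp and Laptm5. The highest difference of all was that of Cybb, the catalytic subunit of the phagocyte NADPH oxidase. It read 12.21 and 5.26 in control cells and 12.08 and 11.87 in miR-155 cells, a difference of 6.61 or 97.6-fold. Lyz2, lysozyme of macrophages, read 13.59 and 7.58 in control cells and 13.60 and 13.32 in miR-155 cells, 53.7-fold higher. Lyz1 is a near-identical copy whose signal cannot be kept apart, and it was 61.3-fold higher. Cx3cr1, the fractalkine receptor, read 10.32 and 5.0 in control cells and 10.84 and 10.51 in miR-155 cells, 45.6-fold higher. In each of these genes 3 arrays were close and the stimulated control array was low.

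Of the other oxidase genes, Ncf1 was higher by 1.29 while Cyba, Ncf4 and Rac1 differed by 0.02, 0.02 and 0.20, and Rac2 was lower by 1.00. The median over the 9 oxidase and lysozyme genes, 0.20, describes neither group.

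Surface receptors of macrophages were higher in 14 of 24 genes and lower in 1 past 1.5-fold, against 12.3% and 13.6% of all genes, with a median of 0.93. Cd14, the lipopolysaccharide co-receptor, read 10.59 and 6.52 in control cells and 10.67 and 10.25 in miR-155 cells, 13.2-fold higher. Clec4e (Mincle) and Clec4d, C-type lectins for mycobacterial glycolipids, were higher by 3.66 and 3.36. Cd36, a scavenger receptor for oxidised lipids, read 11.55 and 8.17 in control cells and 11.51 and 11.72 in miR-155 cells, 11.7-fold higher. Adgre1, which encodes a classical surface antigen of mouse macrophages, read 9.26 and 4.88 in control cells and 8.35 and 7.92 in miR-155 cells, a difference of 3.04. The 1 lower gene was Gas6, a ligand of the TAM receptors that clear dead cells, at 7.07 and 9.56 in control cells against 5.29 and 6.48 in miR-155 cells. Cd68, Sirpa, Scarb1 and Clec12a stayed within the noise range of 0.47, so the higher levels did not extend to every macrophage gene.

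Toll-like receptors and adaptors were higher in 11 of 21 genes and lower in 2, with a median of 0.59. Of the 21, 18 were above the floor on both stimulated arrays. The median is the value of Tlr8, which is counted as higher. Tlr8 was below the floor on both stimulated arrays, at 3.47 (control) and 4.06 (miR-155). Tlr7, the endosomal sensor of single-stranded RNA, read 8.55 and 3.29 in control cells and 7.85 and 7.95 in miR-155 cells. Because the stimulated control array was below the floor, it is at least 13-fold higher. Tlr13, a sensor of bacterial ribosomal RNA, was higher by 3.45 and Tlr2, the lipoprotein receptor, by 2.11. Irak3, a negative regulator of the pathway, was higher by 2.74. Tlr4 differed by 0.09 and its partner Ly96 (MD-2) by -0.38, while Cd180 and its partner Ly86 differed by -0.78 and 2.11. Ticam1, the adaptor TRIF, was lower by 1.28.

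Fc and complement receptors had 4 higher and 1 lower of 11 past 1.5-fold, against 12.3% and 13.6% of all genes. Their median was 0.07, the lower one being Itgax by 2.35. Fcgr1, the high-affinity IgG receptor, read 8.01 and 5.48 in control cells and 8.68 and 8.39 in miR-155 cells, a difference of 2.90. C5ar1, the anaphylatoxin receptor, read 8.28 and 3.63 in control cells and 8.01 and 6.96 in miR-155 cells, at least 6.55-fold higher. Themis2, an adaptor of myeloid and B cells, read 8.60 and 4.14 in control cells and 9.29 and 8.52 in miR-155 cells, at least 19.4-fold higher. Ms4a6c and Ms4a6b, membrane-spanning proteins of unsettled function, were at least 16.5-fold and 6.89-fold higher.

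Of 14 prostaglandin and leukotriene enzymes, 4 were higher and 1 lower past 1.5-fold, with a median of 0.35. The higher ones include Hpgd, above the floor on the stimulated miR-155 array alone, at 4.45 against 3.29 in stimulated control cells. Measured against the floor it is only known to be at least 1.15-fold higher. Alox5ap, the protein that presents arachidonate to 5-lipoxygenase, was 11.9-fold higher, at 10.07 and 6.31 in control cells and 10.24 and 9.88 in miR-155 cells. Pla2g4a, the phospholipase that releases arachidonate, was higher by 2.25, and Ltc4s, leukotriene C4 synthase, was the 1 lower member, by 1.15. Of 7 purinergic receptors and ectonucleotidases, 1 was higher and 2 lower, against 12.3% and 13.6% of all genes, with a median of -0.21. P2ry6, a receptor for UDP, read 9.46 and 4.82 in control cells and 9.59 and 8.43 in miR-155 cells, 12.3-fold higher. The lower members were P2ry2 and P2rx4, by 1.80 and 1.20. Also higher past 8-fold in the whole comparison were Tnip3, an A20-binding inhibitor of NF-kB, by 3.71, Gpr84, a receptor for medium-chain fatty acids, by 3.42, Smpdl3b, a sphingomyelinase-like membrane protein, by 3.38 and Pld4, an endolysosomal nuclease, by 3.43. Cd300ld, a receptor of the CD300 family, was higher by 3.78.

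Interferon-response genes were higher as a group. Of 29 interferon-stimulated genes above the floor, 18 were higher and 0 lower past 1.5-fold, and the median was 0.64. Parp14 read 7.20 and 5.0 in control cells and 7.49 and 7.18 in miR-155 cells, a difference of 2.18. Usp18, a feedback inhibitor of the interferon receptor, was higher by 2.05, Dhx58, an RNA helicase of the RIG-I family, by 1.98 and Rtp4 by 1.91. Oasl1, Rsad2 and Zbp1 differed by -0.25, -0.19 and 0.02. Of 7 interferon regulatory factors, 5 were higher and 0 lower, with Irf8 at 1.80, Irf2 at 0.94, Irf7 at 0.64 and Irf5 at -0.09. In unstimulated cells the list's median difference was 0.18, with 1 gene higher past 1.5-fold, where 1.18% of all genes were higher and 3.14% lower past that fold, 4.32% together.

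The interferon-stimulated response element is bound by the STAT and IRF factors. Its core GAAANNGAA, searched on both strands, was in 13 of 26 promoters of the list (50%), against 8.56% of all promoters. The promoter of Trim30a, a TRIM protein of macrophages that was higher by 1.62, is shown as the matching promoter with the largest difference. It lies at chr7:104465144-104465443 on the minus strand, and capitals mark the core, which reads on the other strand here.
Trim30a: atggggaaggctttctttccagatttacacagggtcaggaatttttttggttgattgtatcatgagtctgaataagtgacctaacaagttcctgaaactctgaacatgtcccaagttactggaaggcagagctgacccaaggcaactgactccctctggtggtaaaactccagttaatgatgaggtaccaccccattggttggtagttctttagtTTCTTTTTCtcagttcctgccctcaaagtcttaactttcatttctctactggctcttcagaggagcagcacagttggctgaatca
Among all genes above the floor with this core in a promoter, 7.34% were higher past 2-fold, against 5.52% of those without it.

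Genes of mitosis, DNA replication and DNA repair were higher in nearly all members measured. Osteoclast precursors leave the cell cycle as they differentiate. Of 43 mitosis and spindle genes, 43 were higher past 1.5-fold and 42 past 2-fold, with a median of 2.28 and a range from 0.68 to 3.11. Their median difference in unstimulated cells was 0.03. The median response of the list to stimulation was -2.27 with the control vector and -0.04 with miR-155. Mki67, the proliferation antigen Ki-67, read 10.21 and 7.26 in control cells and 10.02 and 10.17 in miR-155 cells, a difference of 2.91. Nuf2, a kinetochore protein, read 8.63 and 5.74 in control cells and 8.65 and 8.85 in miR-155 cells, a difference of 3.11. Kif11, the spindle motor Eg5, and Smc2, a condensin subunit, were both higher by 3.04. The smallest differences were those of Bub3, a checkpoint protein, at 0.68 and Ndc80, a kinetochore protein, at 1.04.

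DNA replication and G1/S genes were higher in 40 of 43 and lower in 0, with a median of 1.68. Prim1, the DNA primase, read 7.88 and 5.17 in control cells and 7.79 and 7.77 in miR-155 cells, a difference of 2.60. The replicative helicase genes Mcm2 to Mcm7 were higher by 1.84 (Mcm2), 2.39 (Mcm3), 1.92 (Mcm4), 2.06 (Mcm5), 2.08 (Mcm6) and 1.93 (Mcm7), a narrow band for the 6 subunits of 1 complex. The ribonucleotide reductase genes Rrm1 and Rrm2 were higher by 2.07 and 2.34. Cdt1, a licensing factor, read 9.17 and 9.56 in control cells and 9.43 and 9.38 in miR-155 cells, and with E2f1 (0.36) and Gins2 (0.57) it was within 1.5-fold.

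DNA repair genes were higher in 23 of 24, with a median of 1.56. Chek1, the replication checkpoint kinase, read 7.77 and 4.99 in control cells and 7.93 and 8.23 in miR-155 cells, a difference of 3.25. The Fanconi anaemia gene Fancd2 was higher by 2.03 and the recombination gene Brca1 by 0.67. The 1 lower gene was Xrcc5, a Ku subunit that joins broken DNA ends, by 0.86. Of 17 replication-dependent histone genes, which have close copies that share probes, 12 were higher and 3 lower past 1.5-fold, with a median of 1.99. H2ac4 was higher by 2.92 and H2bc4 lower by 2.24. H2bc4 read 5.34 and 9.77 in control cells and 6.0 and 7.52 in miR-155 cells, the reverse of its family's pattern.

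The list of cell cycle inhibitors and p53 targets had no common direction. Of its 24 genes, 7 were higher and 7 lower past 1.5-fold, with a median of 0.13. The count includes Ccnd1, which is a cyclin and not an inhibitor. Ccnd1, cyclin D1, read 10.93 and 8.50 in control cells and 11.43 and 10.80 in miR-155 cells, a difference of 2.30, and Rbl1 (p107) was higher by 2.17. Cdkn1b (p27), which accumulates in arrested cells, read 7.34 and 8.40 in control cells and 7.18 and 7.60 in miR-155 cells, a difference of -0.80. Trp53inp1, a p53-induced gene, and Gadd45b, a stress gene, were lower by 1.95 and 1.67. Myc read 5.03 and 9.07 in control cells and 5.41 and 8.26 in miR-155 cells, a difference of -0.81, while Mycn was higher by 2.0.

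Cell cycle promoters carry known elements, so the letters of 3 were counted. The cell cycle homology region, here TTTGAA on either strand, is bound with the CCAAT box by the DREAM complex and NF-Y. It was in 31 of 40 mitosis promoters (77.5%), against 17.9% of all promoters, and CCAAT was in 33 of 40 (82.5%), against 37.4%. Both were in 27 of 40 (67.5%), against 6.95% of all, with matches of the 2 overlapping each other in 47 of 32851 promoters. The E2F letters TTTNNCGC were in 19 of 45 replication promoters (42.2%), against 5.17%. The plot of motif shares sets these beside the others. Among all genes above the floor, 11.0% of those with TTTGAA in a promoter were higher past 2-fold, against 4.79% of those without, and for the E2F letters the shares were 11.5% and 5.07%.

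The promoters of Smc2, at chr4:52438971-52439270 on the plus strand, and Mcm3, at chr1:20820263-20820562 on the minus strand, are shown as the members with the largest difference whose promoters hold the letters. Capitals mark TTTGAA, read as its reverse complement, and CCAAT in Smc2, and the E2F letters on either strand in Mcm3.
Smc2: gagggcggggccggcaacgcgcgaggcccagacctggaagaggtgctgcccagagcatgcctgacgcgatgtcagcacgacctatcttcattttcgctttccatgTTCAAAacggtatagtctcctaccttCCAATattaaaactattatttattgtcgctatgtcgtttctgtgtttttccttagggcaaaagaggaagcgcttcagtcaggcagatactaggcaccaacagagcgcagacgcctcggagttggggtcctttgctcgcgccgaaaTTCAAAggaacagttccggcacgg
Mcm3: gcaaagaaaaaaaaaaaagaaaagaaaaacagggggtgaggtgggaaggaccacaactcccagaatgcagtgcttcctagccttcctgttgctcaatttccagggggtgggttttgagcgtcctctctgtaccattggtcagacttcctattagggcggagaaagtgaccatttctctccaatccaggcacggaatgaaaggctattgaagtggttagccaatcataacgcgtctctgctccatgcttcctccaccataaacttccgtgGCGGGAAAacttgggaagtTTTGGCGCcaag
In Smc2 the matches begin 145 bases before, 119 bases before and 27 bases after the start site. In Mcm3 they begin 20 and 39 bases after it.

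**Figure D3:**
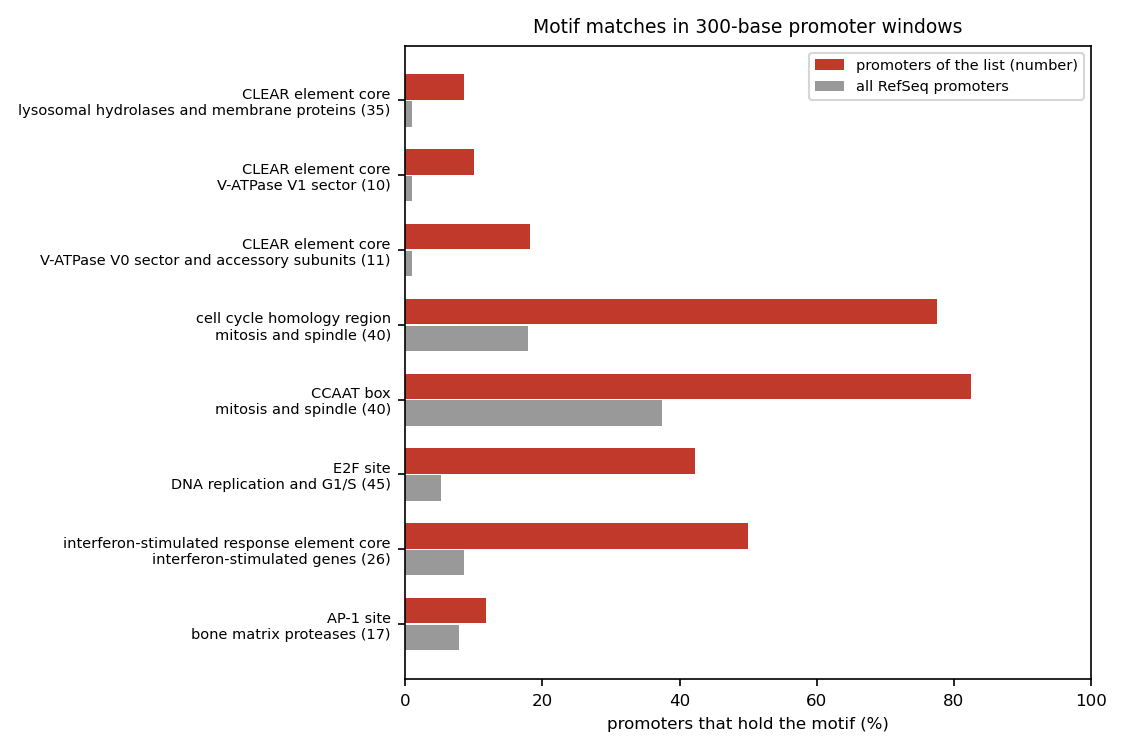
Share of promoters, in percent, that hold each motif on either strand within a 300-base window, for the promoters of 1 gene list (red, number of promoters in brackets) and for all 32851 RefSeq promoters (grey). The cell cycle homology region stands at 77.5% against 17.9%, and the AP-1 site in promoters of the bone matrix protease list at 11.8% against 7.81%.

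Growth-related genes fell into separate groups. Ribosome biogenesis genes were higher in 13 of 26 and lower in 0 past 1.5-fold, with a median of 0.64. Dkc1, the pseudouridine synthase of small nucleolar particles, read 9.29 and 7.88 in control cells and 9.11 and 9.32 in miR-155 cells, a difference of 1.44, and Nop58 and Nop56, core proteins of the same class of particles, were higher by 1.42 and 1.24. None of 27 cytosolic ribosomal proteins passed 1.5-fold in either direction, with a range from -0.33 to 0.38 and a median of -0.04. The 18 aminoacyl-tRNA synthetases also stayed within 1.5-fold, from -0.55 to 0.19. Proteasome subunits were slightly higher, with 7 of 31 past 1.5-fold, 0 lower and a median of 0.22.

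Oxidative phosphorylation genes were lower by a small and fairly even amount, and other mitochondrial genes went both ways. Osteoclasts are rich in mitochondria, which supply the energy for resorption. Of 39 oxidative phosphorylation genes 38 were below 0 and 1 above it, where 47.5% of all genes above the floor were above 0. Of the 39, 8 were lower past 1.5-fold, against 13.6% of all genes. The median was -0.41, within the noise range of 0.47, and 15 of the 39 were past that range. Cyc1, cytochrome c1, read 10.04 and 11.08 in control cells and 10.19 and 10.47 in miR-155 cells, a difference of -0.62. Of 24 mitochondrial biogenesis and TCA cycle genes, 7 were lower and 3 higher past 1.5-fold, against 13.6% and 12.3% of all genes. Their median was -0.32. Ppargc1b, the coactivator PGC-1beta that drives mitochondrial biogenesis in osteoclasts, read 7.30 and 8.89 in control cells and 7.08 and 6.91 in miR-155 cells. Its difference was -1.98, while Tfam and Nrf1 of the same list were higher by 0.87 and 0.77. Glycolysis and pentose phosphate genes had a median of 0.03, with 2 of 22 higher and 1 lower, against 12.3% and 13.6% of all genes. The higher ones were Slc2a6, a hexose transporter, at 9.18 and 5.86 in control cells and 9.43 and 8.61 in miR-155 cells, and Rpia, ribose phosphate isomerase, by 0.89.

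Iron and sterol genes leaned lower. Of 19 iron and heme genes, 9 were lower and 2 higher past 1.5-fold, with a median of -0.51. Tfrc, the transferrin receptor, read 10.23 and 11.34 in control cells and 9.88 and 10.60 in miR-155 cells, a difference of -0.74, and Steap3, the endosomal iron reductase, was lower by 1.23. Ftl1 and Fth1, the ferritin chains, differed by -0.43 and -0.06. Cholesterol synthesis and sterol response genes were lower in 7 of 22 and higher in 0, with a median of -0.40. Hmgcs1, a synthase of the mevalonate pathway, was lower by 0.82 and Abca1, the cholesterol exporter, by 1.26.

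Stress-response genes split in 2 directions. Of 25 amino acid and endoplasmic reticulum stress genes, 8 were lower and 6 higher past 1.5-fold. The genes of the integrated stress response Chac1, Ddit3 and Trib3 were lower by 1.3, 1.13 and 0.90, while the chaperones Hsp90b1, Pdia4 and Creld2 were higher by 1.14, 1.00 and 0.97. Pdia4 rests on its highest probe set, and the mean of its probe sets gave 0.48. Among metal-binding genes Mt3 was the lowest gene of the whole comparison with both stimulated arrays above the floor. Mt3, a metallothionein, read 6.61 and 10.95 in control cells and 6.24 and 6.79 in miR-155 cells, 17.9-fold lower, while its relatives Mt1 and Mt2 were lower by 0.50 and 0.55.

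Secreted factors that osteoclasts use to signal to bone-forming cells were lower in 10 of 17 and higher in 1, with a median of -0.86. Pdgfb, a growth factor released by preosteoclasts, read 7.47 and 10.46 in control cells and 7.73 and 9.0 in miR-155 cells, a difference of -1.46. Lif was lower by 1.81, Vegfa by 1.27, Sphk1, which makes sphingosine 1-phosphate, by 0.88 and Sema4d, a semaphorin that restrains osteoblasts, by 0.86. The higher one was Cxcl16, a chemokine and scavenger receptor, at 7.54 and 3.65 in control cells and 7.76 and 7.23 in miR-155 cells, at least 7.89-fold. Hbegf, a ligand of the EGF receptor, read 4.94 and 8.78 in control cells and 4.84 and 6.06 in miR-155 cells, a difference of -2.72.

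Inflammatory mediators had no common direction. Of 18 cytokine and receptor genes above the floor, 5 were higher and 8 lower, against 12.3% and 13.6% of all genes. The median was -0.06. Il1rn, the interleukin 1 receptor antagonist, read 6.59 and 10.12 in control cells and 5.42 and 7.37 in miR-155 cells, 6.71-fold lower. Il10ra, a chain of the interleukin 10 receptor, read 7.10 and 4.97 in control cells and 7.95 and 7.23 in miR-155 cells, a difference of 2.26. Tnf itself differed by -0.04. Among chemokine receptors, Ccr1, which osteoclast precursors use to migrate, read 3.59 and 8.89 in control cells and 3.17 and 5.87 in miR-155 cells, 8.12-fold lower, while Cx3cr1 was the highest. Cxcl10, an interferon-induced chemokine, was higher by 1.92 and Ccl3 lower by 1.06. Co-stimulatory Cd80 was lower by 1.96, or by 1.42 as the mean of its probe sets.

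Proteases and inhibitors of the urokinase list were lower in 7 of 11 and higher in 0, with a median of -0.83. Anpep, aminopeptidase N, read 7.96 and 10.99 in control cells and 5.55 and 7.32 in miR-155 cells, 12.7-fold lower. Plau, urokinase, read 7.27 and 11.83 in control cells and 6.43 and 9.22 in miR-155 cells, a difference of -2.61, while its receptor Plaur differed by 0.16. Serpinb1a, an inhibitor of neutrophil proteases, was 9.17-fold lower. Of genes above the floor in stimulated control cells alone, Akr1c18, a steroid-metabolising reductase, had the largest bound. It read 3.51 and 9.09 in control cells and 3.42 and 3.84 in miR-155 cells, at least 28.7-fold lower. Next came Cd84, an immune cell adhesion receptor, at least 4.33-fold lower and Cpe, carboxypeptidase E, at least 4.18-fold lower.

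**Figure D4:**
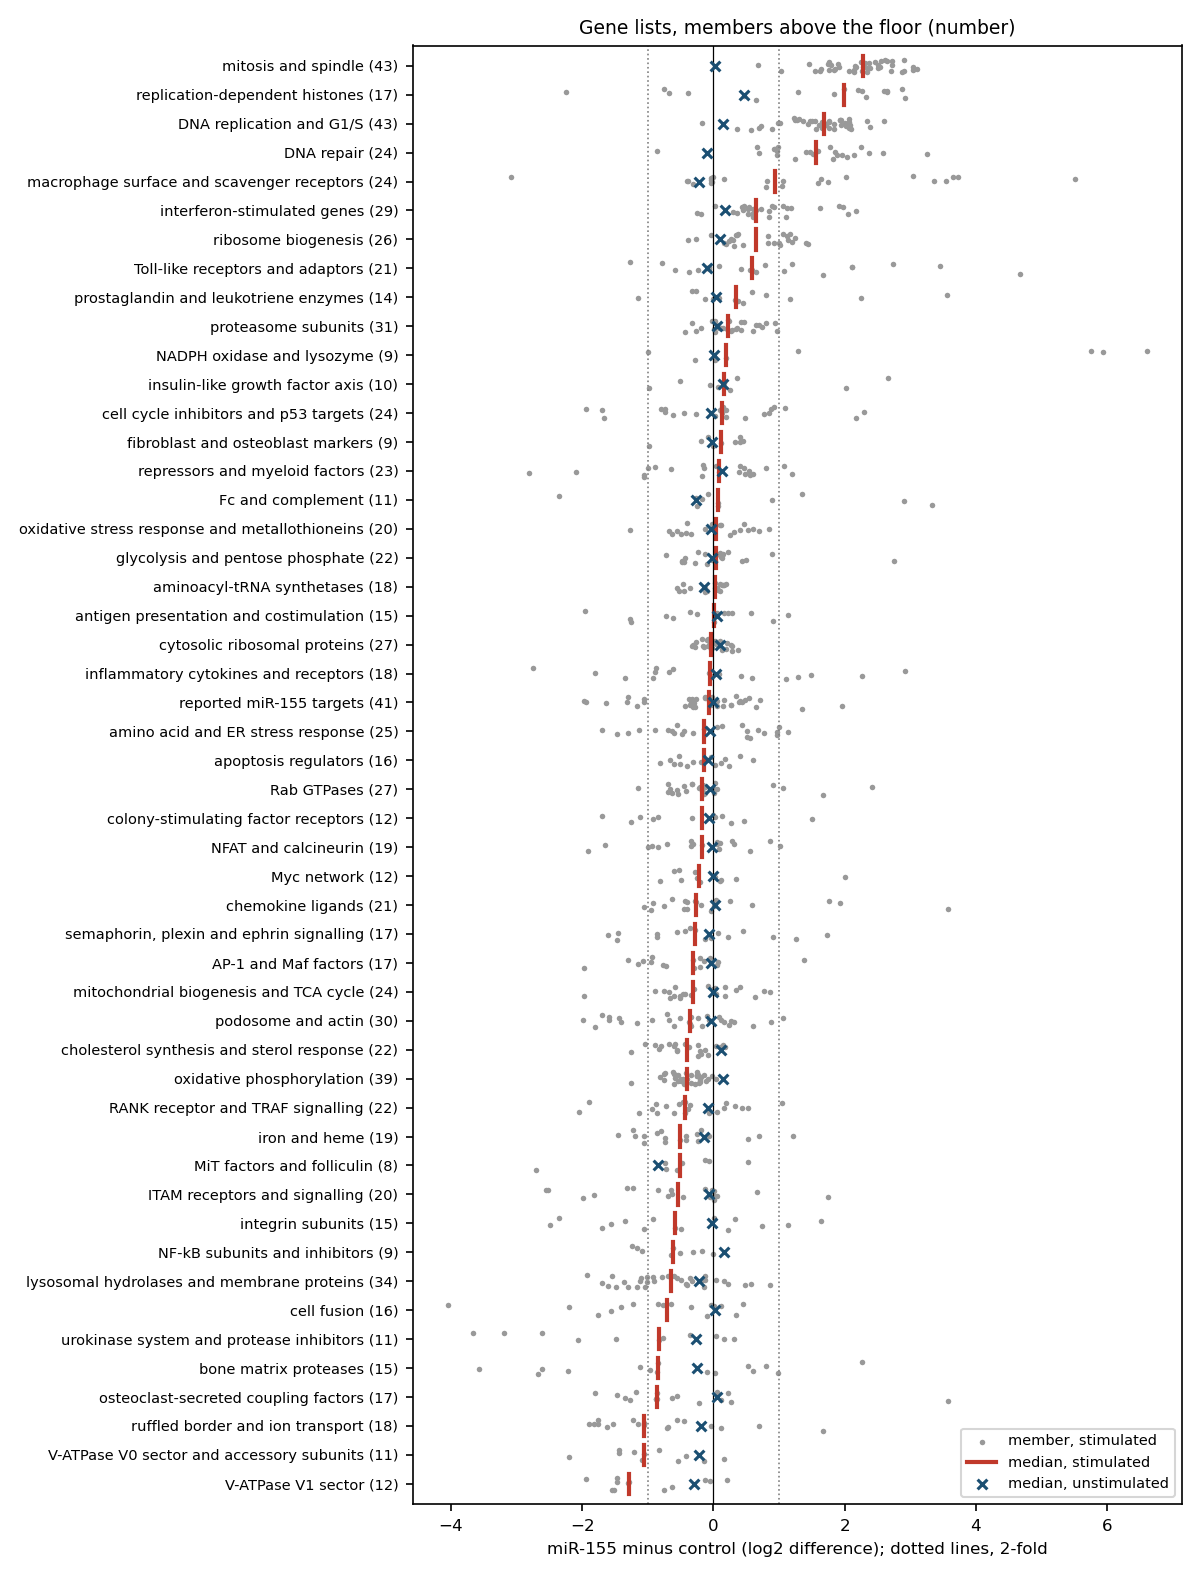
Log2 differences, miR-155 minus control, for the members above the floor (number in brackets) of each pathway list with at least 8 such members, the cell identity markers not being plotted. Grey points are single genes on the stimulated arrays, red bars their medians, blue crosses the medians on the unstimulated arrays, and dotted lines mark 2-fold. Among these lists mitosis and spindle genes stand highest at a median of 2.28 and V-ATPase V1 subunits lowest at -1.29, while the unstimulated medians of both lie at 0.03 and -0.30.

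Of the genes reported elsewhere as direct targets of miR-155, 41 were above the floor (50 listed). Past 1.5-fold, 8 were lower and 4 higher, with a median of -0.07 against -0.02 for all genes. Past 2-fold, 8 of 41 were lower, against 5.55% of all genes, and 2 were higher. The 8 lower genes were Fosl2, Trp53inp1, Zfp36, Tspan14, Fos, Myo10, Hbp1 and Spi1. Without stimulation Fosl2, Zfp36, Tspan14, Fos and Spi1 were not lower, at 0.24, 0.16, 0.10, 0.53 and 0.10, while Trp53inp1 stood at -0.70. On the unstimulated arrays 4 of the 41 were lower and 0 higher past 1.5-fold, where 3.14% of all genes were lower. Inpp5d, which encodes the phosphatase SHIP1, read 9.56 and 9.51 in control cells and 9.55 and 9.37 in miR-155 cells, a difference of -0.14. Bach1 read 7.90 and 7.21 in control cells and 7.33 and 7.27 in miR-155 cells, so that a difference of -0.57 without stimulation was 0.06 after it. Hbp1, a transcriptional repressor, was lower in both states, by 1.10 without and 1.06 with stimulation, at 7.88 and 8.41 in control cells and 6.78 and 7.35 in miR-155 cells. Socs1, a cytokine signalling inhibitor, and Cebpb differed by -0.03 and 0.40. Higher members were Msh6 by 1.97, a mismatch repair gene also in the repair list, Ikbke by 1.35, Sla by 0.71 and Rps6ka3 by 0.65. Arrays read message levels, so effects on translation alone are outside what they measure, and seed matches in messages were not searched here.

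The same contrast without stimulation shares no array with the stimulated one, so the genes past 2-fold in each could be compared. Of the 753 genes lower past 2-fold after stimulation, 27 were also lower past 2-fold without it, which is 3.59% of the stimulated list and 36.5% of the 74 genes of the unstimulated list. Of the 759 higher genes, 7 were also higher without stimulation, 0.922% of these and 77.8% of the 9 genes of the unstimulated list. By sign alone, 69.2% of the lower genes were also below 0 without stimulation and 54.3% of the higher genes above 0, where 49.9% of all genes were above 0. Genes lower in both states by the largest mean were Gpnmb, Anpep, Gas6, Ctsk, Edil3, Il1rn, Rgs1 and Layn. Edil3, a secreted integrin ligand, read 5.55 and 10.42 in control cells and 4.50 and 6.99 in miR-155 cells, 10.8-fold lower after stimulation and 2.07-fold lower before it. Those higher in both states were Themis2, Il18rap, Gpr84, H2ac4, Cxcl14, Fcgr1, H4c4 and H4c6. Cxcl14, a chemokine, read 4.94 and 4.49 in control cells and 6.89 and 6.26 in miR-155 cells, and was the one among these with the larger difference before stimulation, 1.95 against 1.76. Il18rap, a chain of the interleukin 18 receptor, read 4.76 and 2.92 in control cells and 5.83 and 6.13 in miR-155 cells, at least 3.68-fold higher after stimulation.

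**Figure D5:**
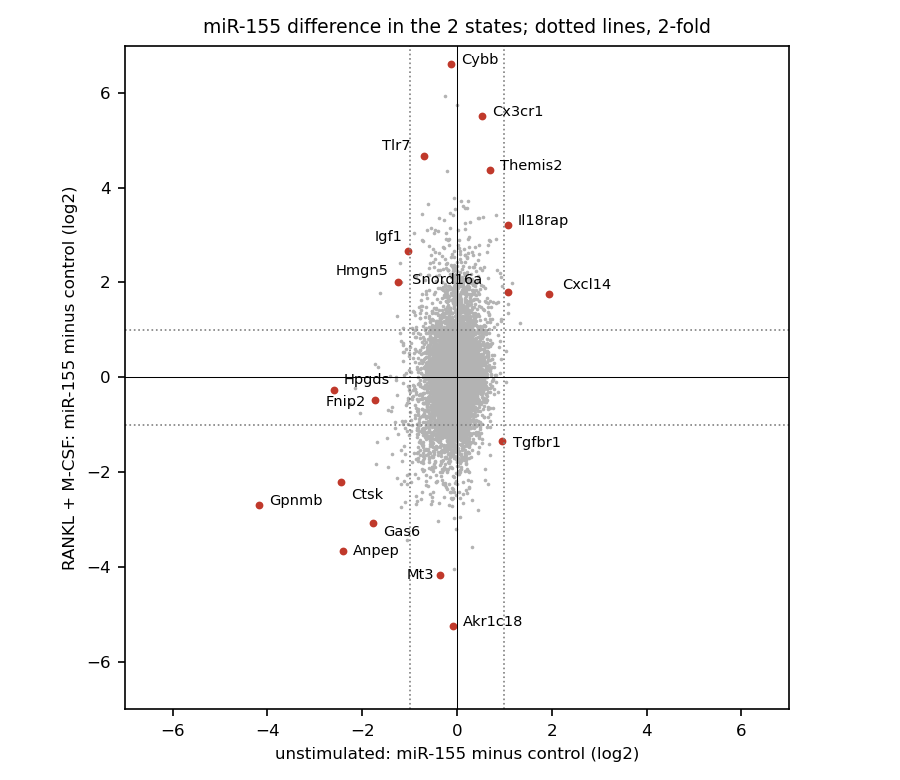
Log2 difference, miR-155 minus control, of 13561 genes on the unstimulated arrays (x axis) and on the stimulated arrays (y axis), 1 array per group, with dotted lines at 2-fold and named genes in red. The cloud is tall and narrow, with an SD of 0.68 along the y axis and 0.28 along the x axis. Gpnmb, Anpep, Gas6 and Ctsk lie below 2-fold on both axes, while Cybb and Akr1c18 lie near 0 on the x axis.

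A difference without stimulation could also be smaller after it. Hpgds, a prostaglandin D synthase, read 8.58 and 7.46 in control cells and 5.98 and 7.19 in miR-155 cells, 6.07-fold lower before and 1.20-fold lower after stimulation. Fnip2, a folliculin partner, read 10.17 and 9.10 in control cells and 8.44 and 8.63 in miR-155 cells, 3.31-fold lower before and 1.39-fold lower after. In both genes the stimulated arrays were closer to each other than the unstimulated ones.

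The 49 genes for which the stimulated miR-155 array stood apart were looked at by name after their values were seen. They were 19 higher and 30 lower ones, and small nucleolar RNAs led the higher ones. Snord49b read 7.29 and 7.44 in control cells and 7.69 and 9.43 in miR-155 cells, and Snord16a read 7.96 and 8.53 in control cells and 9.03 and 10.33 in miR-155 cells. Of 46 small nucleolar RNA genes above the floor, 30 were higher and 0 lower past 1.5-fold on the stimulated arrays, against 12.3% of all genes higher, and 6 were higher and 0 lower on the unstimulated ones. Their median difference was 0.83 after and 0.20 without stimulation, and the stimulated miR-155 array was the highest of the 4 for 37 of them. Small nucleolar RNAs guide the chemical modification of ribosomal RNA and are mostly cut from introns of host genes. RNA integrity values were not at hand, and the part of RNA quality in these values was not tested. Hmgn5, a nucleosome-binding protein, was also apart, at 6.45 and 4.94 in control cells and 5.22 and 6.96 in miR-155 cells. Of the lower ones Zfp358, a zinc finger gene, read 6.97 and 7.08 in control cells and 6.42 and 5.68 in miR-155 cells, and Cic, the capicua repressor, read 8.45 and 8.48 in control cells and 8.55 and 7.43 in miR-155 cells.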

How the data were processed

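Total RNA (100 ng per array) from 4 cultures was hybridised to Affymetrix Mouse Gene 1.0 ST arrays. The authors deposited 1 log2 value for each probe set on each array. Per the submitters' processing notes these come from RMA and Partek; their versions and options were not at hand. RMA makes the arrays' distributions alike, so a shift shared by most genes would not show. Of 35557 probe sets, 21789 had 1 gene symbol, 1621 several and 12147 none, and 21698 of the single symbols were in RefSeq (GRCm38.p6). Differences, counts and medians were computed in Python 3.11.15 (numpy 2.4.6, pandas 2.3.3) and tested on simulated data. A fold against an array below the floor was computed against the floor and is a lower bound. List counts and medians used the log2 differences as read, also for genes with a stimulated array below the floor. The number of arrays, 1 per group, limits the precision.

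The members and gene lists were chosen with earlier results of these data known. Genes named are preset genes, the 15 highest and 15 lowest differences, the 8 highest and lowest bounds, the 8 highest and lowest in both states and up to 6 leading members of each list; other members are named as examples and were chosen after their values were seen. Alternatives covered probe set choice, normalization, the floor and the fold.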

Additional observations from a re-analysis of the deposited data

Results flagged for a closer look

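For 15 of the genes chosen by the naming rule the difference between miR-155 and control cells had opposite signs, past 1.5-fold in each, with and without stimulation. Each side rests on 1 array per group, and the difference between the states was not tested. The unstimulated value is given second for each. Among macrophage and innate genes Tlr7 stood at 4.67 and -0.70, Clec4e at 3.66 and -0.60, Tlr13 at 3.45 and -0.74, Adgre1 at 3.04 and -0.91, Gm8995 at 2.78 and -0.59, and Fcgr2b, the inhibitory IgG receptor, at 1.36 and -0.78. Igf1, the growth factor, stood at 2.66 and -1.04. Kif20b, a mitotic kinesin, stood at 2.87 and -0.71. Atf3 stood at 1.39 and -0.91, and Plxnc1, a semaphorin receptor, at 1.26 and -0.77. Lower after stimulation and higher without it were H2bc4, at -2.24 and 0.66, and Arsb, at -1.93 and 0.59. Ocstamp stood at -1.42 and 0.68. Tgfbr1, a TGF-beta receptor, stood at -1.35 and 0.96, and Itga6, an integrin chain, at -1.34 and 0.96. Of other genes mentioned above, Ctsl stood at 0.99 and -0.68, Itga4, an integrin chain, at 1.14 and -0.68, and Hmgn5 at 2.02 and -1.24. Over all genes above the floor, 84 were higher past 1.5-fold after stimulation and lower past it without. They are 5.02% of the 1674 higher genes, where 3.14% of all genes were lower without stimulation. The reverse held for 16, or 0.871% of the 1838 lower genes, where 1.18% of all genes were higher without stimulation.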

How the results depend on the processing

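The counts past 2-fold, 759 higher and 753 lower, ranged from 665 to 808 and from 675 to 883 under another choice of probe set, 3 other normalizations and 3 other floors. Past 1.5-fold they were 1674 and 1838, and past 4-fold 179 and 91. Centring each array on its median moved the median of all genes from -0.02 to -0.11. Of 411 list medians recomputed, 407 moved by less than the noise range of 0.47, and of those past 0.47 in the report 0 changed sign. The 4 others were the NADPH oxidase and lysozyme list (0.20 in the report, 0.74 with the floor at the 99th percentile of the receptor probe sets), the urokinase list (-0.83, then -1.49), the insulin-like growth factor list (0.16, then 0.75) and the bone matrix proteases (-0.85, and -0.22 with no floor). These alternatives test fewer or more genes of each list. No paired analysis was possible because each group has 1 array. Differences near the floor are compressed by background, which makes low folds understated.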

Other observations

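Probe sets outside the report were counted the same way. Of 1621 probe sets with several gene symbols, 905 were above the floor. On the stimulated arrays 109 of these were higher and 15 lower past 2-fold, 13.7% together, against 11.1% of genes. Of 12147 with no symbol, 6472 were above the floor, with 538 higher and 291 lower, 12.8% together. On the unstimulated arrays the same 2 groups had 2 higher and 2 lower, and 135 higher and 274 lower. The group with no symbol thus differed there far more often than genes did, of which 0.612% were past 2-fold. The reason was not tested.

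The insulin-like growth factor list, not described above, held 2 of 10 genes higher and 1 lower past 1.5-fold. Of all genes, 12.3% were higher and 13.6% lower past that fold. Igfbp4, a binding protein, read 8.75 and 5.59 in control cells and 8.86 and 7.61 in miR-155 cells, and Igf2r, the receptor that carries lysosomal enzymes, read 9.88 and 10.42 in control cells and 8.75 and 9.44 in miR-155 cells. In the Rab GTPase list, 4 of 27 were higher and 5 lower, not far from those shares. Its member Rab3il1, which interacts with a Rab and is not itself a Rab GTPase, was higher by 2.41. In the semaphorin and plexin list, Plxnd1 read 7.79 and 10.81 in control cells and 6.69 and 9.20 in miR-155 cells, and Nrp1, a co-receptor for semaphorins and VEGF, read 6.16 and 4.23 in control cells and 6.10 and 5.96 in miR-155 cells. Of 16 apoptosis regulators, 1 was higher and 3 lower past 1.5-fold, against the same 12.3% and 13.6% of all genes, with a median of -0.14.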
